A study of Danio rerio with 6 samples.

Results

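The regions described here are the 1103 intronic rows, of 9546 rows in all, of the table in which the study listed open chromatin that scored higher in blood of adult zebrafish derived from cortisol-treated embryos than in blood of their controls. A row belonged to the set when its annotation began with an intron. The rows were chosen by the authors' comparison of the pooled treated with the pooled control libraries, which are the same libraries whose values follow, so treated and control values are described here and not tested. ATAC-seq, the assay used, marks accessible DNA with a transposase that inserts sequencing adapters where nucleosomes leave room, and an open region then appears as a peak of reads. The first group comprised 3 libraries from adults raised from embryos of the AB strain that were kept in 1 µM cortisol for the first 5 days of development. The second comprised 3 libraries from AB adults whose larval medium held DMSO, the solvent, for the same 5 days. Replicates 1, 2 and 3 were 12, 11 and 10 months old in both groups, and the tissue was blood. A legend of the study describes each library as a pool of blood from 6 fish of both sexes, whereas the deposited design speaks of 6 individual fish, so whether a replicate is a pool or a fish is not settled.

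An intron is transcribed and then spliced out of the messenger RNA, and its DNA often holds enhancers and secondary promoters of its own gene or of a neighbouring gene. First introns in particular are known for regulatory elements close to the start of transcription. Red blood cells of fish keep their nucleus and far outnumber the other blood cells, so chromatin of fish blood is mainly that of erythroid cells. Classical intronic elements of erythroid genes in mammals include those of *ALAS2*, which encodes the enzyme that starts haem synthesis in red cells. Glucocorticoids such as cortisol act through a nuclear receptor that binds DNA at promoters and at distal sites, many of them within introns. Because blood is a mixture of cell types, a region that is less open in each cell and one that is open in fewer cells cannot be told apart.

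The value given for a region is its within-library percentile. For each library, the highest-scoring peak that overlapped the region by at least 1 bp was ranked against the 13835 regions that had a peak in all 6 libraries, so that 50 is the middle of those regions and 100 the top. A percentile was needed because the peak score of MACS2, 10-fold the summit's −log10 q, is not scaled between libraries. The lists held 49583, 56695 and 26905 peaks in treated replicates 1, 2 and 3, against 138146, 63072 and 29401 peaks in control replicates 1, 2 and 3. Read totals are not in the lists, so the depth is unknown and no counting interval is given. The replicate number and the age cannot be told apart, and the 10-month libraries had the fewest peaks in both groups. Names inside the lists of replicate 1 number the groups the other way round from those of replicates 2 and 3. Names of the pooled peaks begin with the word Flipped. What the numbering and that word mean is not stated, and whether labels of replicate 1 were exchanged is not known. The groups were taken from the sample titles, and the main values are therefore also given without both libraries of replicate 1.

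Most intronic regions lay in first introns. Of the 1103 regions, 690 (62.6%) were in the first intron of their transcript, 151 in the second, 68 in the third, 29 in the fourth, 31 in the fifth and 134 further in. The last intron held 85 regions, of which 32 were in transcripts with a single intron. Measured from the region to the nearest transcription start, 370 regions lay within 1000 bp, 364 between 1000 and 10000 bp and 369 beyond 10000 bp, 32 of these beyond 100000 bp. The median position was 1580 bp downstream of the start, with quartiles of 482.5 and 12366 bp. First-intron regions had a median position of 866 bp and regions of later introns one of 10056 bp, with upstream regions counted as negative. In absolute distance the medians were 1008 and 15107 bp. Within 1000 bp of a start lay 344 of the 690 first-intron regions, whereas 257 of the 413 in later introns lay beyond 10000 bp. The histogram of distances had a maximum on either side of a dip between 1000 and 10000 bp, the nearer one made mostly of first-intron regions.

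**Figure D1:**
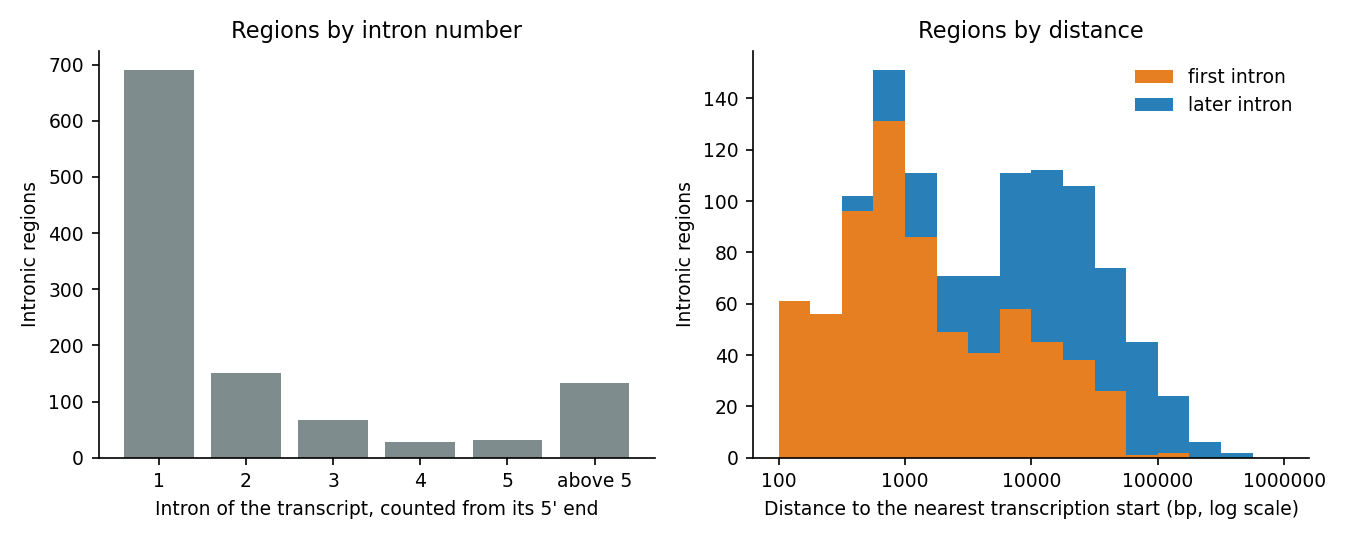
Left, number of intronic regions (vertical axis) by the intron of the transcript that holds them. Right, number of intronic regions (vertical axis) by absolute distance to the nearest transcription start in bp on a log axis, stacked by first and later introns; 690 of the 1103 regions are in first introns and 370 lie within 1000 bp of a start.

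Intronic regions were as narrow as intergenic ones. Their median width was 357 bp (quartiles 275 and 439 bp, range 200 to 1317 bp), against 359 bp for the 3378 intergenic rows and 387 bp for the 4493 promoter rows. The authors' score of the comparison, which chose the rows, had a median of 22.7 and a range of 10.7 to 171 over intronic rows, a median of 27.6 over promoter rows and one of 24.7 over intergenic rows. A CpG island was annotated at 98 intronic rows (8.88%) and at 408 intergenic rows (12.1%). Repeats were annotated at 96 intronic rows (8.70%) and at 438 of the 3378 intergenic rows. Every chromosome held intronic regions, with 26 on chromosome 24 as the fewest and 70 on chromosome 20 as the most.

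The gene nearest to an intronic region was not always the gene whose intron held it. The nearest start belonged to the transcript holding the intron at 927 regions (84.0%) and to another transcript at 176. Of these 176, both transcripts could be given a gene symbol at 144, of which 126 had different genes and 18 had a second start of the same gene. *flrt3*, which encodes a cell adhesion protein, was the nearest gene to a region 400229 bp upstream of its start in intron 6 of 19 of *macrod2*. *ppox* and *slc25a37*, both needed for haem synthesis, were the nearest genes to regions in intron 5 of 6 of *oxr1a* and in intron 10 of 12 of *entpd4*. *ldb1b*, a cofactor that bridges blood transcription factors on DNA, was nearest to 3 regions in the single intron of *filip1l*, which lay between 9641 and 7332 bp upstream of its start. Genes are named below by the nearest start, and the holder of the intron is given where it differs.

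The 1103 regions belonged to 870 nearest genes, which are 13.8% of the 6295 genes named in the table. Of these, 437 also had a promoter row, 717 had a single intronic region and 21 had 4 or more. Genes of several lists were looked for, and their shares stand beside the 13.8% of all genes in the table with an intronic region. Of 37 erythroid genes looked for, 25 were in the table and 13 of those (52.0%) had an intronic region. The corresponding numbers were 13 of 27 (48.1%) for glucocorticoid-responsive genes, 11 of 26 (42.3%) for transcription factors of blood formation, 7 of 22 (31.8%) for chromatin modifiers and 6 of 32 (18.8%) for autophagy genes. Of the markers of other blood cells looked for, 3 of 23 lymphoid, 4 of 21 myeloid and 3 of 11 thrombocyte genes were in the table. *rag2*, which encodes a subunit of the recombinase of antigen receptor genes in lymphocytes, was the only intronic member of the 3 lymphoid genes found. None of the 4 myeloid and 3 thrombocyte genes in the table had an intronic region. With so few genes, and 13.8% of all genes in the table having one, nothing is read from these counts. The lists overlap. Of the genes with an intronic region, *foxo3a*, *foxo3b* and *klf9* were both glucocorticoid-responsive genes and transcription factors of blood formation. *tal1* and *klf1* were both erythroid genes and such transcription factors. These lists were put together with results of these data known, and their counts are a description.

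A peak was found in all 6 libraries at 981 of the 1103 intronic regions (88.9%). The share was 95.6% for promoter rows, 91.5% for intergenic rows and 93.1% for the whole table. Regions without a peak numbered 7, 1 and 4 in treated replicates 1, 2 and 3, against 67, 90 and 13 in control replicates 1, 2 and 3. Of the 122 regions that lacked a peak somewhere, 112 lacked it only in control libraries and 108 only in control replicates 1 or 2. The rows had been chosen for a higher treated score. Control replicates 1 and 2, which lacked the most peaks, had the longest lists of the control group and the lowest median peak scores. Those medians were 65 and 69, against 257 in control replicate 3. In treated replicates 1, 2 and 3 they were 91, 85 and 267. Why these peaks were missing was not tested.

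Intronic regions stood lower than promoter regions in every library. Their median percentile was 62.8, 67.0 and 65.4 in treated replicates 1, 2 and 3, against 59.7, 58.1 and 64.6 in control replicates 1, 2 and 3. Promoter regions had medians of 64.8, 69.3 and 71.0 in the treated libraries, against 61.0, 65.8 and 69.8 in the controls. The difference between intronic and promoter medians was negative in 6 of 6 libraries and lay between −7.70 and −1.31 percentile points, with a mean of −4.01 ± 2.55 (SD, n = 6 libraries). Against intergenic regions it was negative in 6 of 6 libraries as well, between −5.93 and −1.32 points. These differences were small beside the spread of the regions themselves, whose quartiles in treated replicate 1 were 43.2 and 83.4. All 3 classes passed the same choice for a higher treated score, and the comparison covers only rows that passed it.

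**Figure D2:**
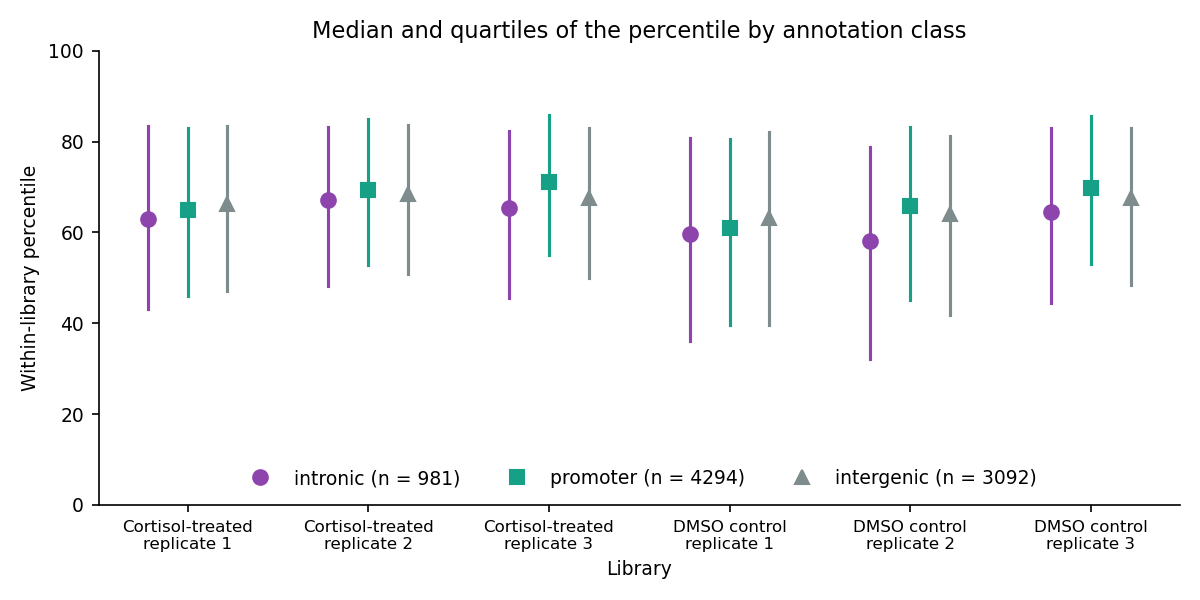
Within-library percentile (vertical axis, 0 to 100) of intronic, promoter and intergenic regions with a peak in all 6 libraries, for 3 cortisol-treated and 3 DMSO-control libraries; symbols are medians and lines run from the lower to the upper quartile. The intronic median is below the promoter median in each library, most in DMSO-control replicate 2 (58.1 against 65.8).

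Position within the gene made no difference of constant direction. First-intron regions had a lower median than regions of later introns in 4 of 6 libraries and a higher one in treated replicate 3 (by 4.63 points) and control replicate 3 (by 0.39 points), with a mean difference of −2.36 ± 4.48 (SD, n = 6 libraries). Without both libraries of replicate 1 the mean difference was 0.09. Peaks over first-intron regions were wider, with medians of 599, 760 and 658.5 bp in treated replicates 1, 2 and 3 against 507, 483.5 and 634 bp in the controls. Over later introns the peak widths were 497, 604 and 531 bp in the treated libraries against 470, 440 and 526 bp in the controls. The first-intron medians were thus larger by 37 to 156 bp. Among regions more than 1000 bp from a start they were larger by only 6 to 37.5 bp. Regions beyond 10000 bp of a start stood above those within 1000 bp by 8.98 points in control replicate 1 while the same difference was −4.17 points in treated replicate 3. Regions on CpG islands had medians above those of all intronic regions in every library, between 68.1 and 73.3 in the treated libraries and between 68.2 and 71.0 in the controls.

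Over the 981 regions, the treated libraries had the higher mean percentile at 780 (79.5%), beside 79.5% of promoter rows and 77.5% of the whole table. The median of treated minus control was 3.40 points for intronic regions, against 2.57 for promoter rows, 2.57 for intergenic rows and 0.98 for all 13835 common regions. By replicate number the median difference was 2.62 points in replicate 1, 6.03 in replicate 2 and 0.35 in replicate 3. The sign depended on what a peak was ranked against. When percentiles were taken among all peaks of each library's own list, the intronic median was −1.24 points and that of all common regions −2.39 points.

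Every treated library exceeded every control library at 116 of the 981 regions (11.8%) and was below every control at 7 (0.714%). Over all 13835 common regions the shares were 5.88% above and 2.9% below, and over the listed rows 8.69% were above, with 7.41% of promoter rows and 9.38% of intergenic rows. Within replicate numbers, which share an age, the treated library exceeded its control in all 3 pairs at 312 regions (31.8%), beside 21.5% of common regions, and was below it in all 3 at 55, beside 15.3%. Since the rows were chosen on this contrast, nothing is read from any of these shares. Control replicate 3 was the library that most often closed the gap. It exceeded at least 1 treated library at 750 regions, control replicate 1 did so at 448 and control replicate 2 at 388. Without control replicate 3 the groups were apart upward at 391 of 981 regions, beside 23.0% of common regions. Without both libraries of replicate 1 they were apart upward at 333 of 1010, beside 20.3%. Ranked within each library's own list, only 6 regions had all treated libraries above all controls, beside 0.354% of common regions, and none had them below, beside 0.137%.

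**Figure D3:**
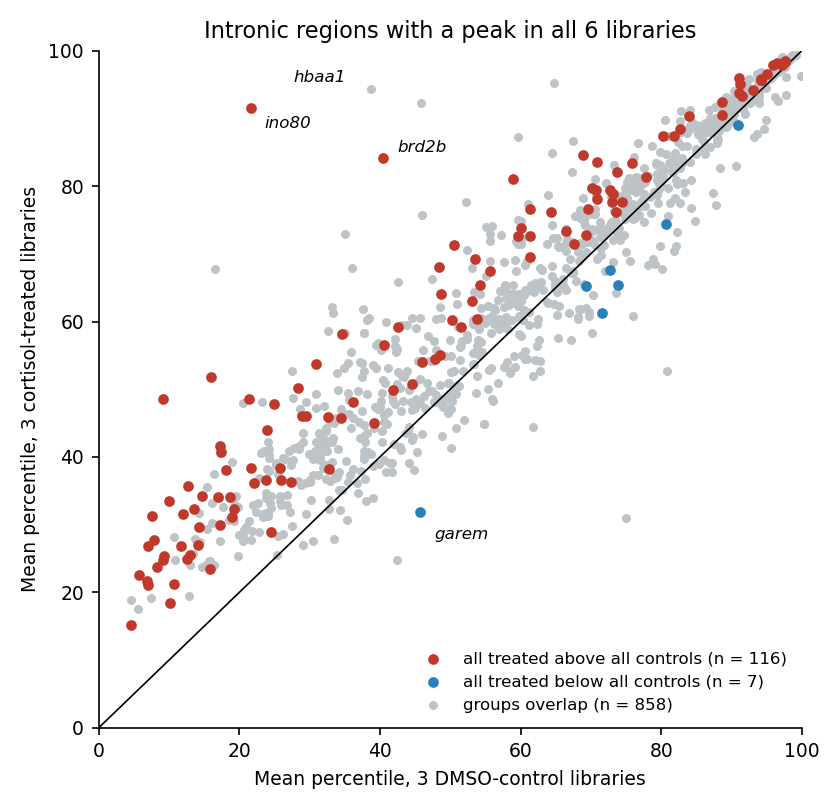
Mean percentile of 981 intronic regions in the 3 cortisol-treated libraries (vertical axis) against the mean in the 3 DMSO-control libraries (horizontal axis), 1 point a region, with the line of equal means. All treated libraries exceeded all controls at 116 regions and lay below all controls at 7; *ino80* has the largest upward distance from the line.

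The intronic rows with the highest scores of the authors' comparison were among the strongest peaks of every library. The 12 top rows lay near *abhd12*, *mtmr3*, *dyrk1b*, *cbl*, *otud5a*, *pik3r3a*, *atxn2l*, *nfyc*, *foxo3b*, *idh1*, *cdc14b* and *wbp4*, and 8 of them were in a first intron. *abhd12*, which encodes a lipase of lysophospholipids, had its region at bases 21178981 to 21179668 of chromosome 17 (build GRCz10), in intron 1 of 13 and 765 bp from the start. It stood at percentiles 99.1, 99.0 and 99.3 in treated replicates 1, 2 and 3, against 97.7, 95.0 and 99.1 in the controls. The treated values were nearly equal, and control replicate 3 lay between them.

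*mtmr3*, a phosphoinositide phosphatase linked to autophagy, had a region 14093 bp from its start in intron 1 of 19, at bases 3960036 to 3960609 of chromosome 8. Its percentiles were 99.2, 99.4 and 99.6 in the treated libraries, against 98.1, 98.5 and 99.6 in the controls. *cbl*, which encodes a ubiquitin ligase that turns off receptor tyrosine kinases, had a region 5861 bp from its start in intron 1 of 15. It was the 1 top row whose groups did not overlap, with 98.0, 98.6 and 98.2 in treated libraries, against 97.0, 94.6 and 97.9 in controls. In the other 11, the highest control value reached at least the lowest treated one. *foxo3b*, a transcription factor of stress resistance and red cell maturation, had its top region in intron 2 of 3, 19871 bp from the start, at 99.3, 99.2 and 99.5 in treated libraries, against 98.7, 98.6 and 99.4 in controls. At the remaining top rows the difference of the group means lay between 0.31 points at *atxn2l* and 1.075 points at *wbp4*. The peak also covered another listed row in 6 libraries at *atxn2l* and *cdc14b* and in 5 at *wbp4*. What part that row had in these percentiles was not tested. Near the top of the scale a percentile can differ little, since the lowest value among these 12 rows was 94.6, that of *cbl* in control replicate 2.

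Intronic regions of erythroid genes covered nearly the whole range of percentiles. Their 14 rows lay near 13 genes, and 11 rows had a peak in all 6 libraries, of which 10 had a higher treated mean and none had groups apart, beside 79.5% and 11.8% of the 981 intronic regions. Within replicate numbers, 3 of the 11 were higher in all 3 pairs, those of *nt5c2l1*, *alas2* and *hbaa1*, beside 31.8% of the 981. The median of treated minus control over the 11 was 7.46 points, beside 3.40 for all intronic regions. *alas2*, the first enzyme of haem synthesis in red cells, had a region at bases 21323216 to 21323676 of chromosome 8, in intron 1 of 10 and 1591 bp from the start. It stood at 95.1, 96.8 and 97.7 in treated replicates 1, 2 and 3, against 93.9, 90.6 and 96.3 in the controls, and only control replicate 3 lay within the treated values. *slc4a1a*, the band 3 anion exchanger of the red cell membrane, had a region in intron 3 of 20 at 96.7, 97.0 and 94.9 in treated libraries, against 95.0, 93.1 and 95.1 in controls. *nt5c2l1*, annotated as a nucleotidase, had a first-intron region at 95.0, 97.9 and 96.7 in treated libraries, against 94.0, 94.2 and 96.5 in controls. At all 3 genes the region was among the strongest of the library in both groups.

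*tal1*, a transcription factor that blood stem cells and erythroid cells need, had a region 1371 bp from its start in intron 1 of 3. It stood at 61.6, 70.1 and 75.2 in treated libraries, against 53.9, 53.4 and 75.5 in controls, and the values of replicate 3 were nearly the same in both groups. In that replicate the peak was 1381 bp wide in the treated library and 1328 bp in the control and covered another listed row, whereas elsewhere it was at most 440 bp wide. *uros*, the fourth enzyme of haem synthesis, had a region 229 bp from its start at 46.5, 46.4 and 49.3 in treated libraries, against 40.9, 25.7 and 52.6 in controls. *fech*, which inserts iron in the last step, had a first-intron region at 72.4, 74.4 and 78.3 in treated libraries, against 73.0, 33.6 and 72.2 in controls. Control replicate 2 stood apart there, and its peak was 319 bp wide while the other libraries had peaks of 925 to 1014 bp and the peak covered another listed row in 5 of the 6 libraries.

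*blvrb*, a biliverdin reductase of haem breakdown, had a region 2768 bp from its start at 44.6, 61.0 and 52.4 in treated libraries, against 8.2, 17.5 and 56.7 in controls. The peak in control replicate 3 was as strong as in the treated libraries and those of control replicates 1 and 2 were near the bottom. *slc25a37*, the mitochondrial iron importer, had a region 13632 bp from its start in its own first intron at 59.0, 65.7 and 68.9 in treated libraries, against 49.8, 50.4 and 71.0 in controls. *cahz*, a carbonic anhydrase of red cells, stood at 62.1, 67.9 and 61.9 in treated libraries, against 44.4, 61.9 and 75.2 in controls. *ppox* was the exception of the list, at 90.0, 83.7 and 87.1 in treated libraries, against 87.7, 88.1 and 88.6 in controls. *klf1*, the red cell Krüppel-like factor, and *rhag*, an ammonium transporter of the membrane, had weak first-intron regions, with no peak in control replicate 2 at *klf1* and none in control replicates 1 and 2 at *rhag*.

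The adult α-globin gene *hbaa1* had the largest erythroid difference, and it moved with the width of the peak. Its region, bases 54845895 to 54846172 of chromosome 3, lay in intron 2 of 2. It stood at 91.2, 94.5 and 97.4 in treated libraries, against 9.7, 14.2 and 92.2 in controls. The overlapping peak was 1066, 1142 and 1208 bp wide in the treated libraries, against 407, 454 and 1064 bp in the controls, and in 4 libraries it covered another listed row. Control replicate 3 thus looked like the treated libraries in both measures. Globin genes have near-identical copies, and the authors kept reads with up to 3 alignments, so reads of this region may come from several copies. The summit positions are not in the lists, and what part the neighbouring row had in the percentile was not tested.

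Glucocorticoid-responsive genes contributed 22 intronic rows near 13 genes. A peak in all 6 libraries was found at 21, with a higher treated mean at 18, beside 79.5% of the 981 intronic regions. The median of treated minus control was 3.26 points, which is close to the 3.40 points of all intronic regions. The groups were apart at 1 row, beside 11.8% of the 981, and 5 rows were higher in all 3 pairs, beside 31.8%. The row with groups apart was the farther of the 2 regions of *foxo1a*, a transcription factor of glucose production and cell survival. That region lay 35422 bp from the start in intron 1 of 2. It stood at 34.2, 41.5 and 33.9 in treated libraries, against 24.5, 24.1 and 29.1 in controls. The nearer one, at 24783 bp, had 28.9, 32.6 and 10.8 in treated libraries, against 27.6, 12.3 and 9.4 in controls, with the values of replicate 3 below those of replicate 1 in both groups. *foxo3a*, its relative, had regions 2811 and 2012 bp from the start in its single intron. The farther one stood at 94.3, 96.6 and 96.1 in treated libraries, against 91.5, 94.2 and 95.8 in controls. The nearer one stood at 48.3, 49.99 and 45.5 in treated libraries, against 8.2, 5.8 and 47.7 in controls, so that control replicate 3 again had a treated-like value.

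Both corticosteroid receptor genes and *fkbp5* had intronic regions. *nr3c1*, the glucocorticoid receptor gene, had a region 5158 bp from its start in intron 2 of 8 at bases 23498776 to 23499197 of chromosome 14. It stood at 69.9, 75.6 and 69.3 in treated libraries, against 65.3, 64.7 and 69.5 in controls. Its other region, 740 bp from the start in intron 1, stood at 21.7, 35.8 and 29.1 in treated libraries, against 17.7, 19.1 and 31.6 in controls. *fkbp5*, a chaperone partner that lowers the receptor's affinity for hormone, had a weak region in intron 7 of 10, 14068 bp from the start. It had percentiles of 19.6, 11.6 and 20.3 in treated libraries, against no peak, 1.5 and 13.2 in the controls. *nr3c2*, the mineralocorticoid receptor gene, had a region 98760 bp into the gene on a DIRS1 repeat, at 92.8, 81.4 and 57.5 in treated libraries, against 96.5, 90.1 and 76.6 in controls. It was lower in the treated library at each age and highest in the 12-month library of both groups.

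*klf9* and *glcci1*, both activated by glucocorticoids, had regions about 1 kb from their starts whose highest percentiles came with the widest peaks. At *klf9* the values were 81.1, 98.7 and 99.0 in treated libraries, against 96.8, 76.5 and 96.4 in controls. The peaks were 1246, 1904 and 1946 bp wide in treated libraries, against 1836, 842 and 1856 bp in controls, and in 4 libraries they covered another listed row. At *glcci1* the values were 85.8, 99.3 and 79.4 in treated libraries, against 98.4, 78.7 and 87.4 in controls, and the mean difference was 0.01 points. The peaks there were 729, 2118 and 772 bp wide in treated libraries, against 2089, 511 and 708 bp in controls. In 2 libraries they covered another listed row, and the narrower peaks did not rank in order of width. The clock gene *per1b* stood at 31.7, 34.1 and 44.1 in treated libraries, against 21.2, 32.1 and 36.7 in controls. *per3* was nearest to a region in intron 2 of 5 of *vamp3* at 94.6, 90.1 and 90.6 in treated libraries, against 91.9, 93.1 and 89.3 in controls. *nfkbiab*, an inhibitor of NF-κB, was lower in treated libraries on average, with 90.4, 93.0 and 93.2, against 93.0, 95.2 and 93.7 in controls. *cdkn1a*, the cell cycle inhibitor p21, had 2 first-intron regions and *klf15* had 1, all with overlapping groups.

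**Figure D4:**
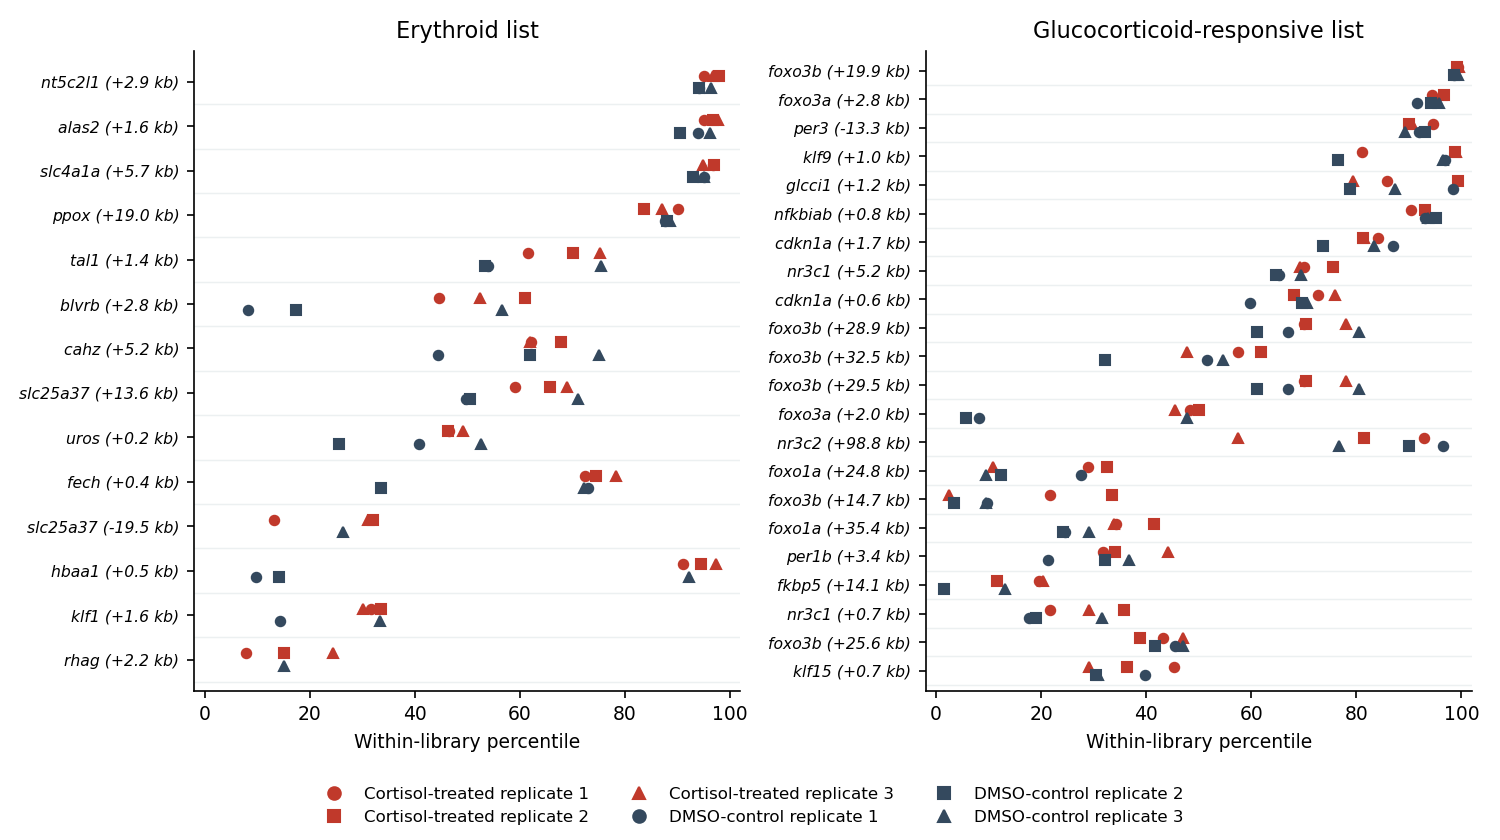
Within-library percentile (horizontal axis) at each intronic region of the erythroid genes (left) and the glucocorticoid-responsive genes (right), ordered by the authors' score, with the signed distance to the start in kb beside the gene; red symbols are cortisol-treated and dark symbols DMSO-control libraries, shaped by replicate, and a library without a peak has no symbol. Of all rows shown only *foxo1a* at 35.4 kb has its 3 treated libraries above its 3 controls with a peak in every library.

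Transcription factors of blood formation had 25 intronic rows, 24 of them with a peak in all 6 libraries, 22 of these with a higher treated mean and 1 with groups apart, against 79.5% and 11.8% of the 981 intronic regions. In all 3 pairs, 6 of the 24 were higher, beside 31.8% of the 981. The median of treated minus control was 3.45 points, close to the 3.40 of all intronic regions. The rows of *foxo3a*, *foxo3b* and *klf9* were also counted among the glucocorticoid-responsive rows, and those of *tal1* and *klf1* among the erythroid ones. The values of these lists are therefore not independent. *zfpm1*, the GATA1 partner known as FOG1, had 6 regions spread from 20611 to 100185 bp downstream of its start in introns 1 and 3 of 8. The region 32365 bp from the start was the 1 with groups apart, at 26.4, 31.4 and 23.4 in treated libraries, against 21.2, 5.8 and 15.2 in controls. Its region with the highest score of the authors' comparison, 20611 bp from the start, had 45.3, 59.6 and 53.1 in treated libraries, against 56.7, 27.2 and 47.7 in controls. Control replicate 2 was the lowest library at all 6 regions of the gene.

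*ldb1b* had 4 regions, all of high rank. The region 7991 bp upstream of its start in *filip1l* stood at 92.9, 94.8 and 94.3 in treated libraries, against 88.3, 89.5 and 93.4 in controls. The region 13773 bp downstream in its own intron 2 stood at 86.1, 90.9 and 90.9 in treated libraries, against 90.8, 85.3 and 89.1 in controls. *lmo2*, which joins TAL1 and LDB1 in a complex on erythroid DNA in mammals, had a first-intron region at 61.2, 66.8 and 62.4 in treated libraries, against 68.7, 45.2 and 59.9 in controls. *cbfb*, the partner of RUNX1, stood at 80.5, 73.0 and 70.7 in treated libraries, against 79.4, 71.1 and 68.6 in controls, highest in the 12-month library of both groups. *bach1b*, a haem-sensing repressor, had 75.4, 86.0 and 74.9 in treated libraries, against 67.8, 73.7 and 78.6 in controls. *mafk*, a small Maf protein that pairs with such factors, had 62.1, 67.2 and 79.4 in treated libraries, against 63.2, 74.2 and 68.9 in controls.

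Autophagy genes had 9 intronic rows near 6 genes, all with a peak in every library. All 9 had a higher treated mean, beside 79.5% of the 981 intronic regions. Their median difference was 2.38 points, which is below the 3.40 of all intronic regions. The groups were apart at 2 of the 9 and 4 were higher in all 3 pairs, beside 11.8% and 31.8% of the 981. In mammals, maturing red cells remove their mitochondria by way of NIX, the product of *BNIP3L*, and both zebrafish relatives of that gene were in the set. *bnip3lb* had 3 regions on chromosome 10, and the groups were apart at the upstream pair, which lay in introns 9 and 8 of 9 of a transcript without a matched symbol. The region 6990 bp upstream of the start stood at 93.9, 93.7 and 93.7 in treated libraries, against 89.6, 90.1 and 93.5 in controls. The region 10860 bp upstream stood at 77.1, 78.8 and 77.0 in treated libraries, against 66.4, 75.8 and 76.6 in controls. The gap to control replicate 3 was under 1 point at both. The region inside the gene, 1237 bp from the start, had 94.3, 95.4 and 95.6 in treated libraries, against 94.0, 93.3 and 96.2 in controls. *bnip3la* stood at 98.9, 98.6 and 98.7 in treated libraries, against 97.8, 97.8 and 99.0 in controls. *tfe3a*, a transcription factor of lysosomal genes, *atg12*, a ubiquitin-like protein of the autophagosome, and *bnip3* had overlapping groups.

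Chromatin modifiers had 9 rows near 7 genes, with a higher treated mean at 6 and a median difference of 0.60 points, beside 79.5% and 3.40 points for all intronic regions. *ino80* and *brd2b*, described further on, were not on the list. *chd2*, a chromatin remodeller, had the 1 listed row of the 9 with groups apart, beside 11.8% of the 981 intronic regions. That row was also the only one higher in all 3 pairs, beside 31.8%. It stood at 98.4, 98.4 and 98.1 in treated libraries, against 97.9, 97.2 and 97.7 in controls. *kmt2a*, a histone H3 lysine 4 methyltransferase, had 55.6, 55.2 and 66.7 in treated libraries, against 61.6, 35.1 and 56.7 in controls. *rag2*, the lymphoid gene, had a region 542 bp from its start at 94.0, 93.4 and 94.6 in treated libraries, against 90.6, 92.8 and 94.0 in controls.

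The genes with the most intronic regions were *foxo3b*, *ppiab* and *zfpm1* with 6 each and *mbnl1* and *slc16a10* with 5 each, and *zeb2a* also had 5. The regions of *foxo3b* lay between 14717 and 32503 bp from the start in intron 2 of 3 and ranged from mean treated percentiles of 19.2 to 99.3. The weakest, on a simple repeat of AG units, stood at 21.7, 33.6 and 2.4 in treated libraries, against 9.7, 3.4 and 9.4 in controls. A pair of its regions shared a single peak in every library and thus have the same percentiles, as do a pair at *mbnl1*. *ppiab*, a cyclophilin A gene, had its regions between 67202 and 269754 bp from the start within introns 2 and 3 of 6. The transcript holding these introns had no matched symbol, and its placement on the build was not tested. The region 67822 bp away stood at 63.6, 72.1 and 61.9 in treated libraries, against 12.9, 50.4 and 64.2 in controls. *slc16a10*, an aromatic amino acid transporter, had 5 regions between 1954 and 6818 bp from its start in intron 1. Of these, the region 6818 bp from the start had groups apart, at 46.5, 53.4 and 50.8 in treated libraries, against 26.1, 17.5 and 41.6 in controls. In treated replicate 2 its peak was 1343 bp wide, against 329 to 460 bp elsewhere. That peak also covered the region 5986 bp from the start, which has the same 53.4 in that library. The region 4240 bp from the start, one of the weakest with a peak in all 6 libraries, also had groups apart. It stood at 19.6, 28.1 and 15.7 in treated libraries, against 8.2, 3.4 and 9.4 in controls.

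Among regions whose groups did not overlap, the 5 with the largest upward differences lay within 1000 bp of a start, and *hbaa1*, whose groups overlapped, had a larger difference than 4 of them. At *ino80*, the ATPase of a nucleosome remodelling complex, the region was 530 bp from the start in intron 1 of 35, at bases 28452582 to 28452883 of chromosome 20. It stood at 90.5, 92.4 and 91.6 in treated libraries, against 11.3, 27.2 and 26.3 in controls. The overlapping peak was 1284, 1338 and 1307 bp wide in the treated libraries, against 349, 345 and 426 bp in the controls, and in 3 libraries it covered another listed row. The groups did not overlap in either measure, and the part of the neighbouring row in the percentile was not tested. At *brd2b*, a reader of acetylated histones, treated replicates 1 and 2 stood at 97.2 and 97.0 with peaks of 1289 and 1413 bp, and treated replicate 3 at 58.1 with a peak of 603 bp. The controls there stood at 36.0, 35.1 and 50.2 with peaks of 315, 491 and 579 bp. In 2 libraries the peak at *brd2b* covered another listed row, and the part of that row in the percentile was not tested either.

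*med13a*, a subunit of the Mediator kinase module, had 27.2, 95.0 and 23.4 in treated libraries, against 17.7, 1.5 and 8.4 in controls, and its peak was 1284 bp wide in treated replicate 2 alone. *abcf2a*, an ABC-family ATPase, had 29.9, 31.4 and 94.2 in treated libraries, against 14.4, 7.2 and 26.3 in controls, with a peak of 1161 bp in treated replicate 3. At both, a single treated library carried most of the difference. The peak also covered another listed row in 1 library at each of these 2 genes, and the part of that row was not tested. *u2surp*, a splicing factor, had 45.3, 50.4 and 50.025 in treated libraries, against 6.8, 15.9 and 41.6 in controls, with no peak that covered another row. Over all 116 regions with the treated libraries above the controls, the widest peak was at least 2 times the narrowest at 39, beside 265 of the 981, and at 11 of the 20 with the largest differences. A peak that covered another listed row in at least 1 library was found at 141 of the 981 regions. Of the 116 regions, 100 had no such peak.

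**Figure D5:**
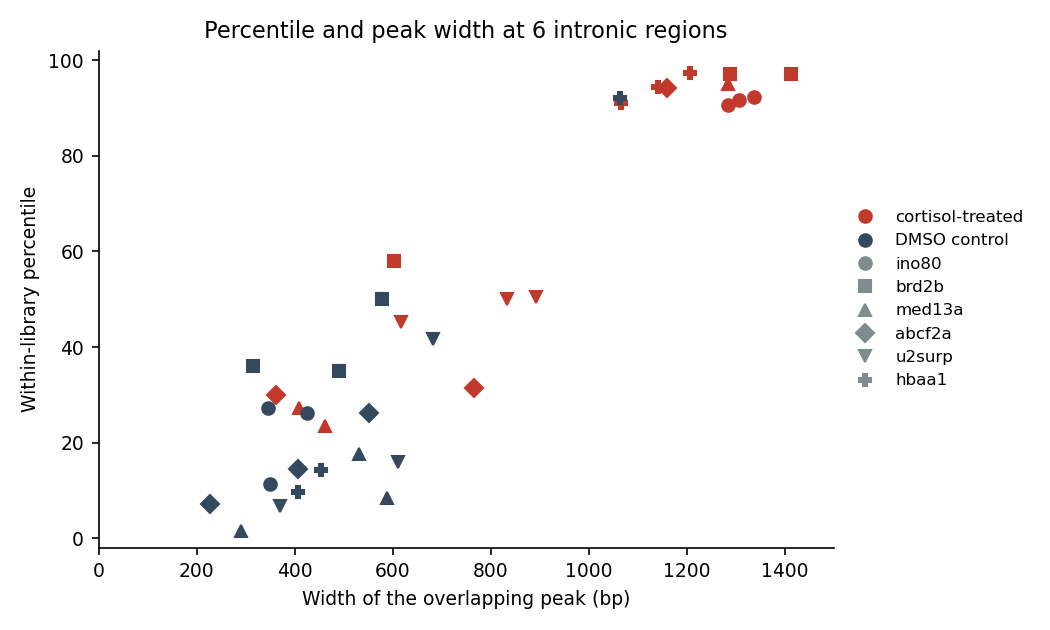
Within-library percentile (vertical axis) against the width in bp of the overlapping peak (horizontal axis) at the intronic regions of *ino80*, *brd2b*, *med13a*, *abcf2a*, *u2surp* and *hbaa1*, with 1 symbol a library, red for cortisol-treated and dark for DMSO-control. Peaks wider than 1000 bp all stand at 90.5 or above, and those of *ino80* are 1284 to 1338 bp wide in treated libraries against 345 to 426 bp in controls.

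The 7 regions with all treated libraries below all controls were listed by the authors as higher in pooled treated libraries, so the percentile and the listing differ in direction there. They lay near *garem*, *exosc3*, *actb2*, *tubb4b*, *spata6l*, *jade1* and *cast*, of which the last 2 were added after their values were seen. *garem*, an adaptor of growth factor signalling, had a CpG island 276 bp from its start at 29.9, 30.8 and 35.0 in treated libraries, against 52.4, 44.0 and 40.9 in controls. *exosc3*, a subunit of the RNA exosome, was nearest to a region in intron 4 of 5 of *b4galt1l* at 61.2, 61.3 and 61.4 in treated libraries, against 75.2, 65.2 and 74.3 in controls. The cytoskeletal genes *actb2* and *tubb4b* encode a β-actin and a β-tubulin. The region of *actb2* stood at 61.2, 68.1 and 66.7 in treated libraries, against 70.7, 78.4 and 72.5 in controls. That of *tubb4b* stood at 68.9, 78.5 and 75.9 in treated libraries, against 81.6, 80.5 and 80.0 in controls. No peak of these 7 regions covered another listed row. Ranked within each library's own list, none of the 981 regions had all treated libraries below all controls.

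The regions nearest to a start lay 101 to 103 bp downstream, at *cdc42*, *raf1b*, *ppp4ca*, *atp6v1h* and *itcha*. Promoter rows, with distance quartiles of −99 and 1 bp, were a class of their own, so the near limit of the intronic set depends on the annotation. *cdc42*, a small GTPase of the cytoskeleton, had groups apart, at 64.2, 65.0 and 67.1 in treated libraries, against 50.7, 49.5 and 62.7 in controls. *ppp4ca*, a protein phosphatase, had no peak in control replicates 1 and 2. The farthest regions were those nearest to *kcnma1a* (424717 bp, in *lrmda*), *flrt3*, *zgc:174710* (293310 bp), *ppiab* and *dpysl4* (205322 bp, in *ppp2r2d*). The region of *flrt3* stood at 66.8, 81.2 and 72.7 in treated libraries, against 63.2, 72.0 and 76.1 in controls. That of *zgc:174710* was highest in the 12-month and lowest in the 10-month library of both groups, at 77.9, 39.9 and 15.7 in treated libraries, against 83.1, 71.6 and 30.8 in controls. Among the 981 regions with a peak in all 6 libraries, the weakest on average were near *tnfaip8l1*, *sypb*, *nyx* (in *ddx3xa*), *foxo3b* and *slc16a10*. The strongest of them were near *nfyc*, *pik3r3a*, *mtmr3*, *foxo3b* and *atxn2l*, and at *atxn2l* the peak covered another listed row in all 6 libraries. *nfyc*, a subunit of the CCAAT-binding factor NF-Y, stood at 99.0, 99.3 and 99.6 in treated libraries, against 98.3, 98.5 and 99.5 in controls.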

How the data were processed

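The members and gene lists were chosen with earlier results of these data known. Per the submitters' processing notes and the study's methods, the authors trimmed reads with Trimmomatic 0.32, cut the reads to 30 bp, placed them on the GRCz10 build by Bowtie 1.0.0, keeping those with up to 3 alignments, and discarded mitochondrial ones. Peaks were called at q 0.001 with duplicates kept (MACS2 2.1.1.20160309). The deposited lists hold a MACS2 score for each peak of each library. The deposited comparison, made by the authors with the bdgdiff function of MACS2 on pooled libraries and annotated with HOMER 4.8, holds a score, which is the log10 of a likelihood ratio and was used only to order rows. The deposited pooled peak lists and the list of regions higher in controls were not used. Long peaks can cover several regions and depth moves the score, hence the ranks.

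From these lists, peaks were merged over libraries into 153054 regions, of which 13835 had a peak in all 6. Percentiles, with ties at their middle rank, were computed with Python 3.11.15, numpy 2.4.6 and pandas 2.3.3, and plots were drawn with matplotlib 3.10.9. The percentile step was tested on simulated lists of about equal length in which no peak covered more than 1 region. The real lists differ in both respects, so the effect of shared peaks and of list length was not tested. Groups came from the sample titles, and no p-value was computed, because the rows were chosen on the contrast and regions are not replicates. Host transcripts were matched to symbols through RefSeq names of another assembly (GRCz12tu), for 1055 of 1103 rows. Named regions were the 12 highest scores, all members of the lists, the 5 genes with the most regions, and the 5 extremes of distance, of mean percentile and of non-overlapping difference in each direction. No genome of the build was at hand, so no sequence is shown and motifs were not analysed here. Alternatives were other reference sets, merged regions, a score minimum of 100, an overlap covering 50% or more of the shorter interval, other class definitions, the replicate block and leaving out libraries. Replicate numbers were taken to pair the libraries, because in the labels both libraries of a number have the same age and the study's text calls the controls siblings, although no source names the clutch. Deviations from group means correlated by 0.58, 0.08 and 0.57 within numbers 1, 2 and 3, and treated replicate 2 correlated best with control replicate 3 (0.17). A result for 1 of the listed genes is not reported here.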

Additional observations from a re-analysis of the deposited data

How the results depend on the processing

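Depth is unknown, values rest on 3 libraries a group, and summits are not in the lists. Overlap of at least 50% and merged regions left all 6 main values within their limits (counts within 1.5 times, other values within 1 SD). Ranking within each library's own list turned the median treated minus control difference to −1.24. It left 6 of 981 regions above and 0 below, beside 0.354% and 0.137% of common regions. With scores of at least 100, 71 of 845 were above, and the share over common regions was not computed. Leaving out 1 library left 981 to 1033 regions, with 149 to 391 above and 12 to 37 below. The extremes were 391 of 981 without control replicate 3 and 37 of 1033 without control replicate 2. The shares of common regions rose as well, to between 8.08% and 23.0% above and between 4.82% and 13.7% below. The median difference was 2.46 to 5.50, the intronic minus promoter difference −4.67 to −3.46 and the first minus later intron difference −3.61 to −0.11. Without both libraries of the 12-month pair, an alternative chosen after seeing the data, 333 of 1010 were above and 39 below. The shares of common regions were 20.3% and 11.5%. The median difference was then 3.53, the intronic minus promoter difference −4.80 and the first minus later intron difference 0.087. With only regions whose peaks cover no other row, also chosen after seeing the data, 840 regions remained, 100 above and 7 below. Under the replicate block, 312 of 981 were above and 55 below in all 3 pairs, beside 21.5% and 15.3% of common regions. The mean of the pair medians was 3.00. Of 111 named regions, 97 to 105 kept their sign without 1 library and 58 in the own-list ranking, where 4 with groups apart changed sign: both upstream *bnip3lb* regions (−0.062 and −1.37), *cdc42* (−0.28) and the farther *foxo1a* region (−1.40). The cause of these changes was not tested.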

Other observations

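Intronic regions on DIRS1 retrotransposons mostly had a lower treated mean, unlike most of the set, which was noticed after their values were seen. Of the 16 such regions, all lay beyond 10000 bp of a start, with a median distance of 48136 bp and a median width of 227.5 bp, and 15 had a peak in all 6 libraries. The mean percentile was lower in treated libraries at 14 of the 15, although the rows were listed as higher in the pooled treated libraries. A higher treated mean was found at 780 of all 981 intronic regions (79.5%) and at 29 of the 54 on other repeats. Their medians were 92.8, 74.7 and 59.3 in treated replicates 1, 2 and 3, against 96.5, 90.1 and 69.5 in the controls. The 12-month library stood above the 10-month library at 14 of the 15 in treated fish and at 14 in controls. The same share over all intronic regions was not counted. The medians of the 981 ran the other way, with 62.8 in the 12-month and 65.4 in the 10-month treated library, and 59.7 and 64.6 in the controls. A fall with replicate number was not particular to DIRS1. Intronic regions on other repeats had medians of 74.2, 65.0 and 55.0 in treated replicates 1, 2 and 3, against 73.6, 66.1 and 60.5 in the controls. The exception in the treated minus control direction was the region near *ar*, the androgen receptor gene, with 22.6, 63.0 and 37.8 in treated libraries, against 26.1, 30.5 and 45.8 in controls, and there only replicate 2 was higher in the treated library. In the whole table, 92 of the 93 DIRS1 rows with a peak in every library had the lower mean in treated libraries. Reads of 30 bp with up to 3 alignments were kept, so a read placed on a repeat may come from another copy.

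A few intronic regions outside the named set had large differences with overlapping groups and peaks of very different width, and they too were chosen after their values were seen. *phf6*, a chromatin-associated zinc finger protein, stood at 90.5, 93.5 and 19.1 in treated libraries, against 19.5, 5.8 and 24.5 in controls, with peaks of 1238, 1393 and 570 bp in treated libraries, against 558, 583 and 808 bp in controls. *agfg1a* stood at 93.2, 90.9 and 92.6 in treated libraries, against 9.7, 35.1 and 92.8 in controls. In the other direction, *dhrs12* stood at 1.2, 74.0 and 18.0 in treated libraries, against 74.8, 73.3 and 76.9 in controls, with peaks of 334, 1046 and 294 bp in treated libraries, against 887, 899 and 1426 bp in controls. At each of them the peak covered another listed row in at least 2 libraries.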
